A study of Homo sapiens with 2 samples.

Results

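The genes described here are 27 members of the pathways that make cholesterol and fatty acids, chosen by name from the genes known to take part in them, out of 55797 genes in the deposited tables. Each of the 27 symbols was found once, and the values of both libraries were joined by Ensembl gene identifier. The series holds 2 RNA-seq libraries, 1 from live and 1 from processed Stage 6 cells. Both were made from the established human embryonic stem cell line H1 after stepwise differentiation to Stage 6, a mixed culture in which insulin-expressing cells are present. Live cells were neither fixed nor sorted, and their RNA was isolated with the RNeasy kit. Processed cells went through MARIS, in which cells are fixed in 4% PFA, permeabilized, stained with antibodies and passed through the sorter. All cells were collected, and RNA was isolated with a modified RecoverAll kit. Fixation, staining, sorting and RNA isolation kit therefore differ together between the libraries and cannot be told apart, and with 1 sample per condition no difference has a replicate check.

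Cholesterol is built from acetyl-CoA in the cytosol and endoplasmic reticulum. The mevalonate steps lead to farnesyl diphosphate, and the enzymes from squalene synthase onwards turn it into the sterol. Fatty acids are made from the same acetyl-CoA, which is carboxylated to malonyl-CoA and then assembled, elongated and desaturated. Most of these genes are activated by the SREBP transcription factors. SREBPs are held in the endoplasmic reticulum membrane together with SCAP and INSIG proteins when sterols are plentiful, and travel to the Golgi for cleavage when sterols are scarce.

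FPKM counts sequenced fragments relative to gene length and to library depth, so levels can be set side by side between genes. Differences between libraries also depend on how the libraries are scaled, and results under other scalings are given below. The deposited tables give each FPKM with a lower and an upper bound, whose level is not stated. Bounds are called separate where those of the live and the processed library do not overlap. They describe each library alone. FPKM values summed to 510713 in live and 499398 in processed cells. In the steps that low values fall on, a single fragment stood for 1.07 times more FPKM after processing, so the processed library was slightly shallower. By that step and the longest transcript of each gene, the 26 members with an annotated transcript held roughly 1100 to 140000 fragments in a library. The bounds of the 27 members lay 0.797% to 9.35% on either side of the FPKM.

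The labelled culture was checked against its markers. INS was at 98.3 FPKM in live and 121 FPKM after processing, and all 8 endocrine markers were above 1 FPKM in both. Their summed level was 2371 FPKM in live and 2361 FPKM after processing, with 3 separately higher and 2 separately lower. Most of it was CHGA, whose processed value has status FAIL and bounds from 0 to 4712 FPKM. The 7 liver markers had a larger sum, at 2599 and 2838 FPKM, with 4 separately higher and 2 separately lower. More than any other marker, SERPINA1 made up this liver sum, at 1496 FPKM in live and 1579 FPKM after processing. The 6 mesenchymal markers summed to 588 and 552 FPKM, with 1 separately higher and 3 separately lower, among them PDGFRB at 4.26 and 1.17 FPKM. Most of the mesenchymal sum was VIM, at 514 FPKM in live and 485 FPKM after processing. The 5 pluripotency markers summed to 204 and 170 FPKM, with 3 separately lower and NANOG separately higher, at 1.27 and 7.34 FPKM. Macrophage markers summed to 4.46 and 1.63 FPKM, with 3 of 5 listed at 0 in processed cells. The 5 adipocyte markers summed to 0.101 and 0.0661 FPKM, so cells specialized in storing fat left almost no signal in either library. For these counts of markers, the shares over all 17326 genes that reached 1 FPKM in either library were 28.1% separately higher and 43.7% separately lower. In a bulk library, fewer cells of a type and less RNA per cell cannot be told apart, and the part of these cell types in the values below was not tested.

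All 27 genes were expressed in both libraries, from 7.93 FPKM (ACSS2) to 151 FPKM (SCD) in live cells and from 9.03 FPKM (STARD4) to 188 FPKM (FASN) in processed cells. Together they made up 0.231% of the summed FPKM in live and 0.225% in processed cells. On the scale log2((processed FPKM + 1) / (live FPKM + 1)), none of the 27 was past 2-fold in either direction. Of the 17326 genes that reached 1 FPKM in either library, 6.57% were past 2-fold upwards and 6.19% past 2-fold downwards. Among the 8515 genes that reached 10 FPKM in either library, which include all 27, these shares were 2.99% and 2.02%. Bounds were separate with the lower value in processed cells for 15 members (55.6%), separate with the higher value for 5 (18.5%), and overlapping for 7. The background shares were 43.7% lower and 28.1% higher over the 17326 genes, and 47.2% lower and 26.8% higher over the 8515 genes. The median log2 ratio of the members was -0.25, against -0.09 over all 17326 genes. The processed library was also scaled by the median ratio, 0.932 over genes of at least 1 FPKM in both libraries. Then 15 members (55.6%) were separately lower against 35.7% of the 17326 genes, and 9 (33.3%) separately higher against 34.8%. Scaled shares were not taken over the 8515 genes. PMVK, FDPS, CYP51A1 and ACACA were the members that became separately higher under that scaling.

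**Figure D1:**
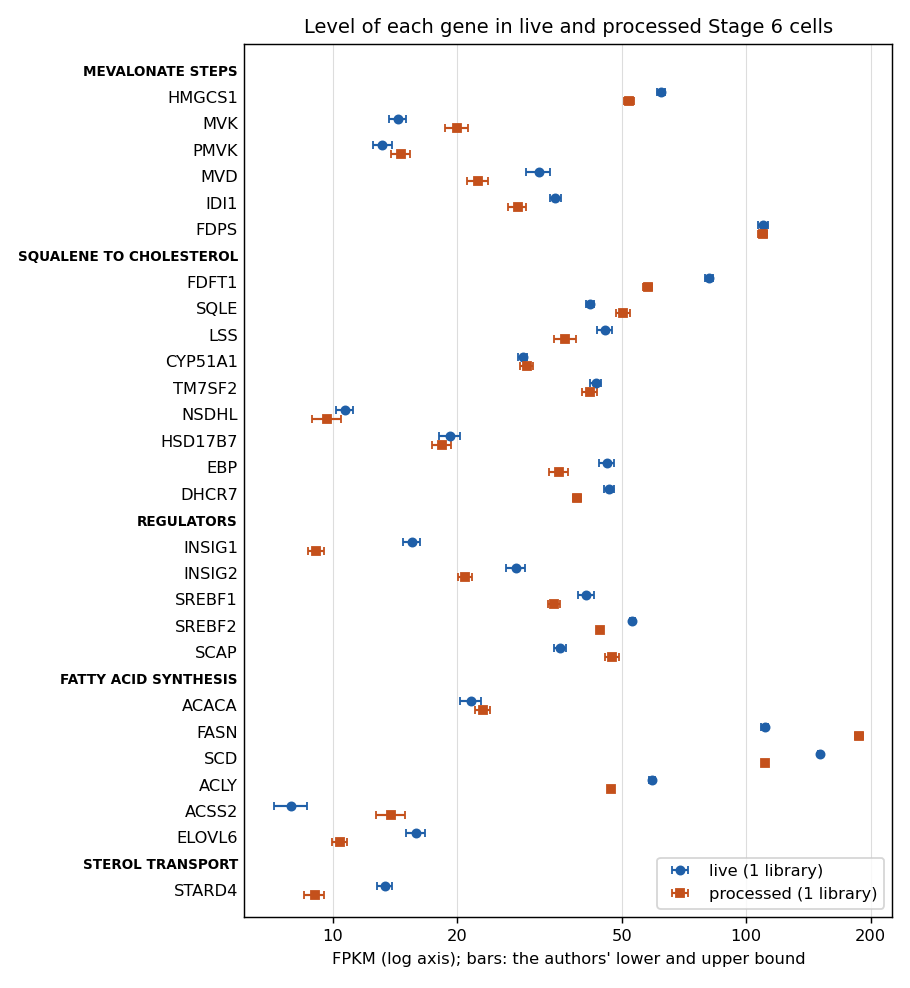
FPKM of each of the 27 genes (log axis) in the live library (circles) and the processed library (squares), grouped by role, with bars from the authors' lower to upper bound. SCD had the highest level in live cells, at 151 FPKM, and FASN in processed cells, at 188 FPKM.

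Fatty acid synthesis held the members with the highest levels and the largest differences upwards. Fatty acid synthase (FASN, ENSG00000169710, chromosome 17, 80036214 to 80056208 on GRCh37), which assembles palmitate from malonyl-CoA, was at 111 FPKM in live cells (bounds 109 to 113) and 188 FPKM in processed cells (184 to 192). The bounds did not overlap, and the log2 ratio of 0.75 was above that of 95.3% of the 8515 genes of at least 10 FPKM. Stearoyl-CoA desaturase (SCD, ENSG00000099194, chromosome 10, 102106877 to 102124591), which places the first double bond into saturated fatty acids, was at 151 FPKM (149 to 152) in live and 111 FPKM (110 to 112) in processed cells, a log2 ratio of -0.44. The order of the most abundant members was therefore exchanged. FASN stood at 0.736 times the FPKM of SCD in the live library and 1.69 times in the processed library, a ratio within each library that no scaling between libraries can change.

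Both sources of cytosolic acetyl-CoA also differed in opposite directions. ATP citrate lyase (ACLY), which cleaves citrate exported from mitochondria, was at 59.2 FPKM (58.2 to 60.2) in live and 47.0 FPKM (46.2 to 47.8) in processed cells. Acetyl-CoA synthetase ACSS2 (ENSG00000131069, chromosome 20, 33459949 to 33515769), which activates acetate, was at 7.93 FPKM (7.19 to 8.68) and 13.9 FPKM (12.7 to 14.97). It was the lowest member in live cells, and its log2 ratio of 0.73 was above that of 95.1% of the genes of at least 10 FPKM. ACLY thus exceeded ACSS2 by 7.46 times in the live library and by 3.39 times in the processed library. In both libraries ACLY remained the more abundant.

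The carboxylase ACACA, which makes malonyl-CoA, was at 21.6 FPKM (20.3 to 22.8) in live and 23.1 FPKM (22.1 to 24.03) in processed cells, with overlapping bounds. The elongase ELOVL6, which lengthens palmitate, was at 15.9 FPKM (15.001 to 16.7) and 10.4 FPKM (9.95 to 10.8), a log2 ratio of -0.57. Of the 6 genes of this branch, 2 were separately higher (33.3%), 3 separately lower (50%) and 1 had overlapping bounds. Over the 8515 genes of at least 10 FPKM, 26.8% were separately higher and 47.2% separately lower. Their summed FPKM was 366 in live and 393 in processed cells, and FASN was the largest term of the processed sum.

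Among the mevalonate steps, the order of levels was shared between the libraries at the top, with FDPS above HMGCS1 in both. Farnesyl diphosphate synthase (FDPS), whose product is the branch point towards sterols and prenyl groups, was at 110 FPKM (107 to 113) in live and 110 FPKM (106 to 113) in processed cells, a log2 ratio of -0.004. HMG-CoA synthase (HMGCS1), which opens the pathway, was at 62.1 FPKM (60.8 to 63.4) and 52.0 FPKM (50.6 to 53.4). Mevalonate kinase (MVK, chromosome 12, 110011060 to 110035067) was the member of this arm with separate bounds and the higher value in processed cells, at 14.3 FPKM (13.7 to 15.004) in live and 19.96 FPKM (18.7 to 21.2) in processed cells. The gene MMAB, which overlaps the start of MVK, was also higher, at 22.6 and 30.0 FPKM, and whether fragments of the overlap were shared between them was not tested.

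Phosphomevalonate kinase (PMVK) had overlapping bounds, at 13.2 FPKM (12.5 to 13.9) in live and 14.6 FPKM (13.8 to 15.4) in processed cells. The decarboxylase MVD, which forms isopentenyl diphosphate, was at 31.5 FPKM (29.4 to 33.6) and 22.4 FPKM (21.1 to 23.7), a log2 ratio of -0.47. The isomerase IDI1, which turns isopentenyl into dimethylallyl diphosphate, was at 34.5 FPKM (33.5 to 35.6) and 28.0 FPKM (26.6 to 29.4). Of the 6 genes of this arm, 1 was separately higher (16.7%), 3 were separately lower (50%) and 2 had overlapping bounds. Among the 8515 genes of at least 10 FPKM these shares were 26.8% higher and 47.2% lower.

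From squalene to cholesterol, 1 of 9 enzymes was separately higher in processed cells (11.1%), 4 were separately lower (44.4%) and 4 had overlapping bounds. The background shares over the 8515 genes of at least 10 FPKM were 26.8% higher and 47.2% lower. Squalene synthase (FDFT1), which commits farnesyl diphosphate to sterols, was at 81.3 FPKM (79.4 to 83.3) in live and 57.8 FPKM (56.4 to 59.1) in processed cells, a log2 ratio of -0.49. Squalene epoxidase (SQLE), the next enzyme and a slow step of the pathway, was at 41.8 FPKM (40.9 to 42.7) and 50.3 FPKM (48.3 to 52.3), a log2 ratio of 0.26. FDFT1 exceeded SQLE by 1.95 times in live cells and by 1.15 times in processed cells. In live cells SQLE lay below LSS, EBP and DHCR7 by FPKM, and in processed cells it lay above all 3, with separate bounds in both libraries.

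Lanosterol synthase (LSS), which closes the sterol rings, was at 45.5 FPKM (43.6 to 47.3) in live and 36.4 FPKM (34.2 to 38.6) in processed cells. The sterol isomerase EBP was at 46.0 FPKM (43.97 to 48.0) and 35.2 FPKM (33.4 to 37.1), and DHCR7, a reductase of the last part of the pathway, at 46.6 FPKM (45.3 to 47.8) and 38.9 FPKM (38.0 to 39.8). These 3 were neighbours in the order of levels within each library, and all had separate bounds and the lower value in processed cells. Lanosterol demethylase CYP51A1, at 28.8 and 29.4 FPKM, the sterol reductase TM7SF2, at 43.2 and 41.8 FPKM, and the demethylation enzymes NSDHL, at 10.7 and 9.67 FPKM, and HSD17B7, at 19.2 and 18.4 FPKM, had overlapping bounds. HSD17B7 has a near copy, the pseudogene HSD17B7P2, at 1.51 FPKM in live and 2.31 FPKM after processing, and FDPS has 7 pseudogenes in the tables, none above 0.167 FPKM.

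**Figure D2:**
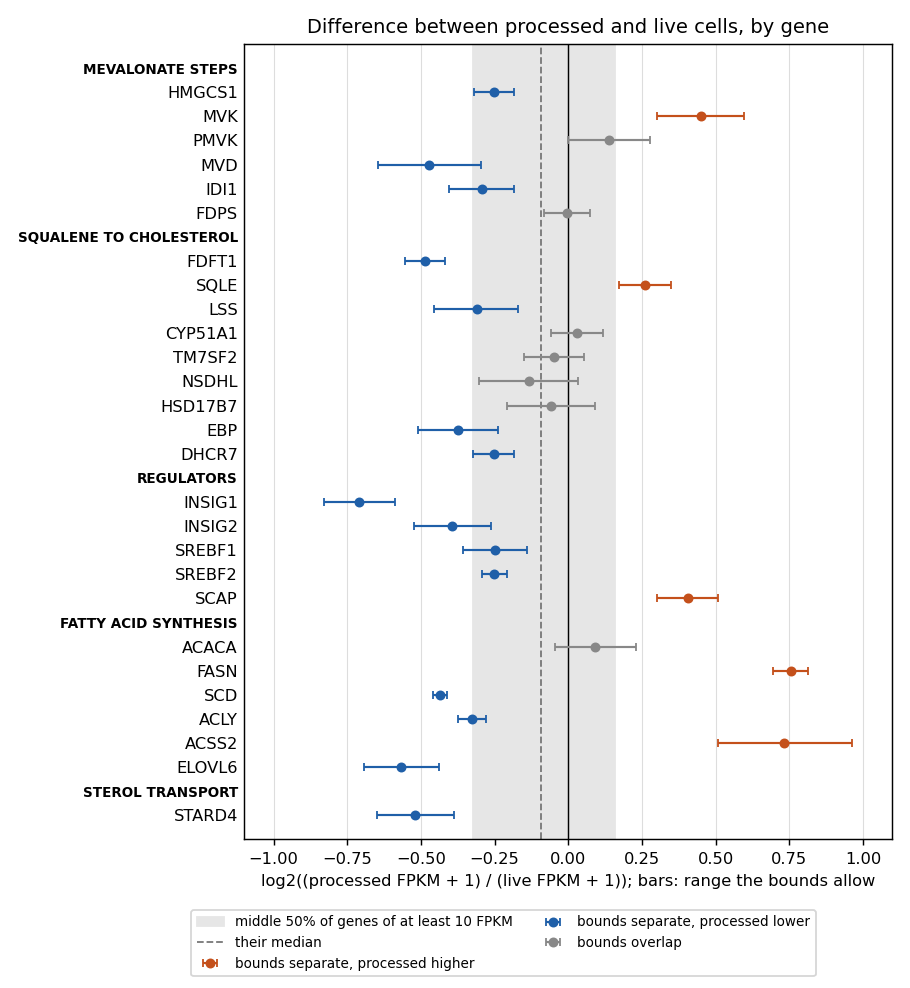
Log2((processed FPKM + 1) / (live FPKM + 1)) of each of the 27 genes by role, with bars over the range that the authors' bounds allow, coloured by whether the bounds of the libraries were separate. The shaded band is the middle 50% and the dashed line the median of the 8515 genes of at least 10 FPKM, and the members run from -0.71 (INSIG1) to 0.75 (FASN).

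The 5 regulators all had separate bounds, 4 lower in processed cells and SCAP higher. Separate bounds were common, with 47.2% of the 8515 genes of at least 10 FPKM separately lower and 26.8% separately higher. INSIG1 (ENSG00000186480, chromosome 7, 155089486 to 155101945), which retains SCAP and the SREBPs in the endoplasmic reticulum, was at 15.5 FPKM (14.8 to 16.3) in live and 9.11 FPKM (8.71 to 9.50) in processed cells. Its log2 ratio of -0.71 was the lowest of the 27, and 5.63% of the genes of at least 10 FPKM had a lower ratio. The related INSIG2 was at 27.7 FPKM (26.2 to 29.2) and 20.8 FPKM (20.03 to 21.7). INSIG2 was the more abundant of the pair in both libraries, by 1.79 times in live and 2.29 times in processed cells.

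SCAP, the escort that carries SREBPs to the Golgi, was at 35.5 FPKM (34.3 to 36.6) in live and 47.3 FPKM (45.4 to 49.2) in processed cells, a log2 ratio of 0.41. SREBF2, which encodes the SREBP that acts mainly on cholesterol genes, was at 53.0 FPKM (52.2 to 53.9) and 44.4 FPKM (43.8 to 45.0). SREBF1, whose products act mainly on fatty acid genes, was at 41.0 FPKM (39.3 to 42.8) and 34.4 FPKM (33.2 to 35.5). Both SREBP genes were lower by the same proportion, and SREBF2 exceeded SREBF1 by 1.29 times in either library. SCAP stood at 0.669 times SREBF2 in live cells and at 1.07 times in processed cells. STARD4, which carries cholesterol between membranes, was at 13.4 FPKM (12.8 to 13.9) and 9.03 FPKM (8.51 to 9.54), a log2 ratio of -0.52.

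Sequences before the transcript starts are shown because SREBPs activate these genes together with the factors NF-Y and Sp1. RefSeq promoters (250 bases before to 50 bases after a start, GRCh38.p14) were found for 24 of the 27 genes, all but FDFT1, SQLE and FASN, and 7 of the 24 had more than 1 start. The sterol regulatory element core, spelled TCACNCCAC and searched on both strands, was present for SREBF2 alone, and in 1.13% of all 35116 promoters and 1.51% of protein-coding genes. A looser spelling, TCACNCNAC, which includes the first and was chosen after the data had been seen, was present for 4 genes (FDPS, HSD17B7, SREBF2 and ACSS2) and in 2.55% of all promoters and 3.42% of protein-coding genes. The NF-Y box, CCAAT on either strand, was present for 18 of the 24 genes, against 34.6% of all promoters and 42.1% of protein-coding genes. It occurred at least 2 times for 13 of the 24, against 10.8% of all promoters and 14.8% of protein-coding genes. Shares of genes, like the members' counts, take a gene as holding a motif if any of its starts does. The Sp1 box, GGGCGG, was present for 23 of the 24, against 45% of promoters and 64.3% of protein-coding genes. A match is a description of the letters only. The stretches that carry the looser sterol element, and those of SCD, which exchanged the top position with FASN, and INSIG1, which had the lowest log2 ratio, are given 5′ to 3′ with sterol elements and NF-Y boxes in capitals (ATTGG is the NF-Y box on the other strand). Positions are exact matches on GRCh37, plus strand.
SREBF2 (chr22:42228970-42229013): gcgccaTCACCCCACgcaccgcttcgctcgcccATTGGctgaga
FDPS (chr1:155278515-155278541): gcTCACACGACggccagcagCCAATca
HSD17B7 (chr1:162760388-162760450): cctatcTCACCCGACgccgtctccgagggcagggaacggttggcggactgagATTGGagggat
ACSS2 (chr20:33464165-33464200): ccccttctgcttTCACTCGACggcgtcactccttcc
SCD (chr10:102106755-102106814): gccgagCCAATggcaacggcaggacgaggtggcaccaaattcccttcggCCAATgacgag
INSIG1 (chr7:155089403-155089437): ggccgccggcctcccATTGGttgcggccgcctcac

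The stretches of SREBF2, FDPS and HSD17B7, of 63 bases or fewer, were cut to hold a sterol element and the NF-Y box nearest to it. In each of them that box lay downstream of the element, which for FDPS and HSD17B7 was the looser spelling alone. FDPS also had an NF-Y box at -176, upstream of its element at -140. No background was taken for such spacing. The ACSS2 element lay before a different start from its NF-Y box. The SREBF2 stretch overlaps an exon of the antisense gene SREBF2-AS1, and the FDPS stretch overlaps an exon of another FDPS transcript. NF-Y boxes were present for 11 of the 14 genes with promoters that were separately lower in processed cells, 2 of the 3 that were separately higher and 5 of the 7 that overlapped. INSIG2, SREBF1, SCAP, PMVK, CYP51A1 and ELOVL6 had none in these windows.

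**Figure D3:**
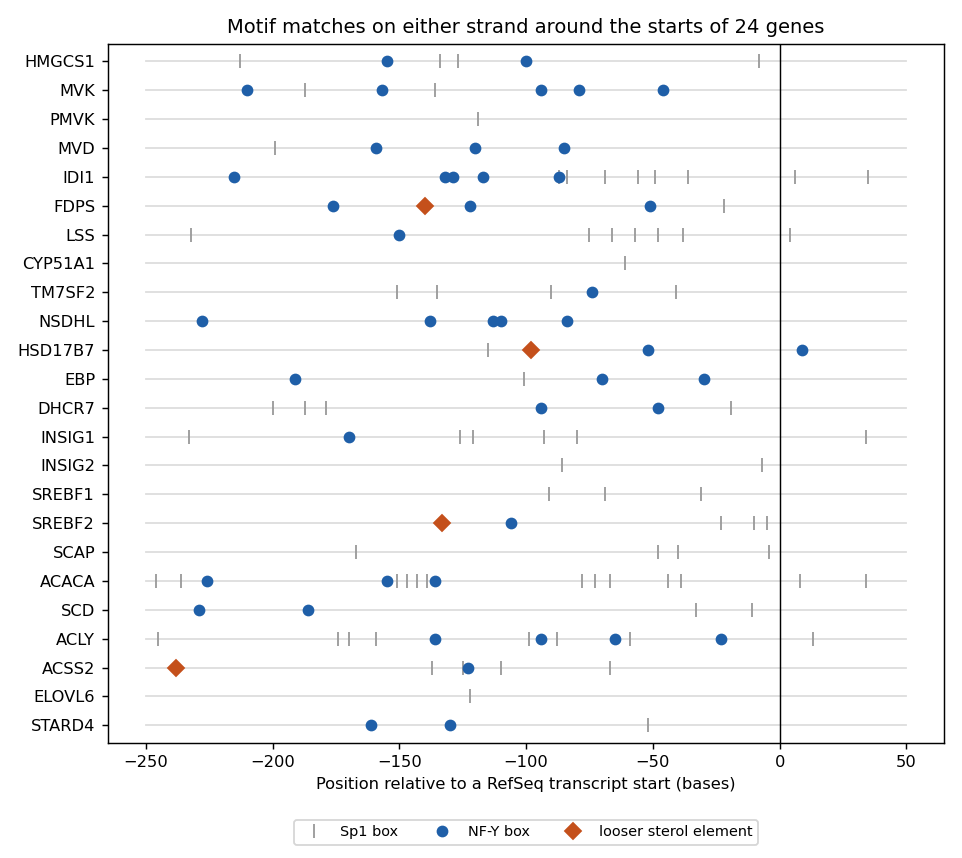
Positions of the Sp1 box (ticks), NF-Y box (circles) and looser sterol element (diamonds) on either strand, in bases from a RefSeq transcript start, for the 24 genes with a promoter; all starts of a gene share its row. NF-Y boxes were found for 18 genes and the sterol element for 4.

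Levels of the 27 genes kept much of their order between the libraries (Spearman's rho 0.94, Pearson's r of log2 FPKM 0.93, n = 27 genes, which share both libraries and are no replicates). Of 351 pairs of members, 34 stood in another order in processed cells, and for 20 of these the bounds of the pair were separate in both libraries. SCAP took part in 6 of the 20 pairs, SQLE in 5 and ACSS2 in 4. SCAP moved above LSS, TM7SF2, EBP, DHCR7, SREBF1 and SREBF2. ACSS2 moved above NSDHL, INSIG1, ELOVL6 and STARD4. Many neighbours in the order were not separated, with overlapping bounds for 14 of 26 neighbouring pairs in live and 16 of 26 in processed cells. In live cells DHCR7, EBP, LSS, TM7SF2, SQLE and SREBF1 formed such a run, from 46.6 to 41.0 FPKM.

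**Figure D4:**
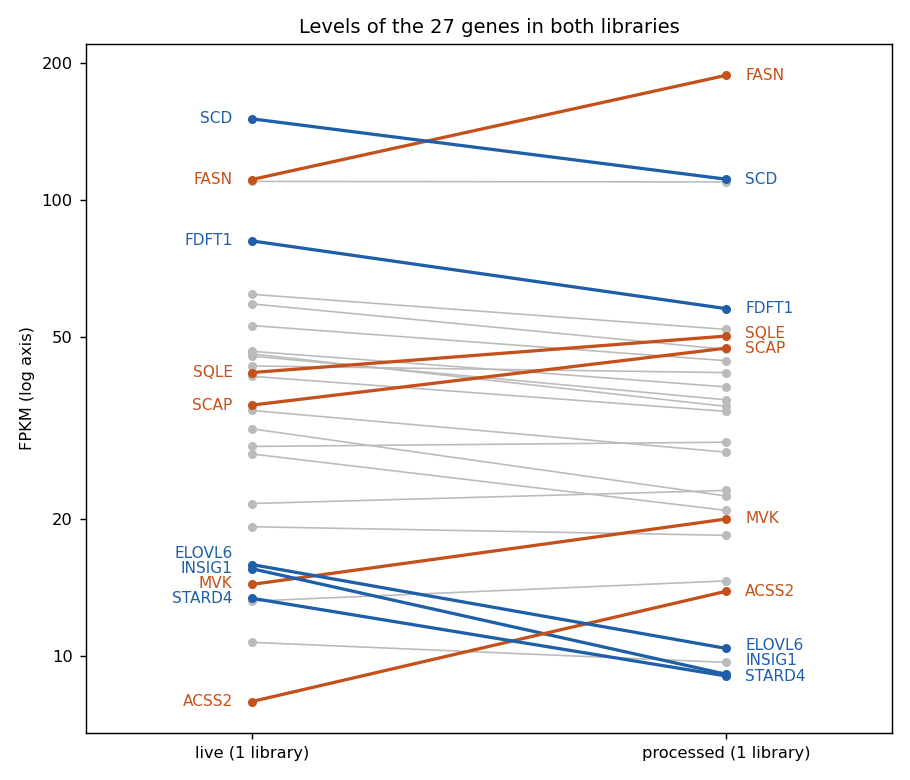
FPKM (log axis) of the 27 genes in the live library (left) and the processed library (right), each line a gene, with 10 genes coloured (orange higher, blue lower in processed cells) and the others grey. FASN and SCD exchange the top position, and ACSS2 goes from the lowest level in live cells, at 7.93 FPKM, to 13.9 FPKM.

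The separately higher members had, on the median, transcripts richer in G and C than the separately lower ones. GC content of the longest annotated transcript had a median of 58.2% (46.5% to 65.3%) over the 5 separately higher members and 47.0% (34.4% to 63.7%) over the 15 separately lower members, so the ranges overlapped. It was 65.3% for FASN, 61.7% for SCAP and 58.2% for MVK, against 34.4% for STARD4, 36.3% for INSIG2 and 44.8% for INSIG1. Other members went the other way, with MVD (63.7%) and SREBF1 (63.2%) separately lower and SQLE (46.5%) separately higher. Over the 26 members with an annotated transcript, all but ACACA, Pearson's r between GC content and log2 ratio was 0.43 and Spearman's rho 0.44. Over 7665 protein-coding genes of at least 10 FPKM, r was 0.15 and rho 0.18. Members and background were then set side by side in 3 equal classes of GC content. In the lowest class, 5 of 7 members were separately lower and 0 higher, against 56.8% and 21% of 2555 genes. In the middle class 4 of 7 were lower and 2 higher, against 51% and 25.1%. In the highest class 6 of 12 were lower and 3 higher, against 38.8% and 31.4%. INSIG1, SCD, FDFT1, SQLE and ACSS2 all lay in the middle class and differed in both directions. Between transcript length and log2 ratio, r was 0.04 and rho -0.07 over the same members, against -0.12 and -0.15 over the 7665 genes. The part of GC content in these differences was not tested.

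**Figure D5:**
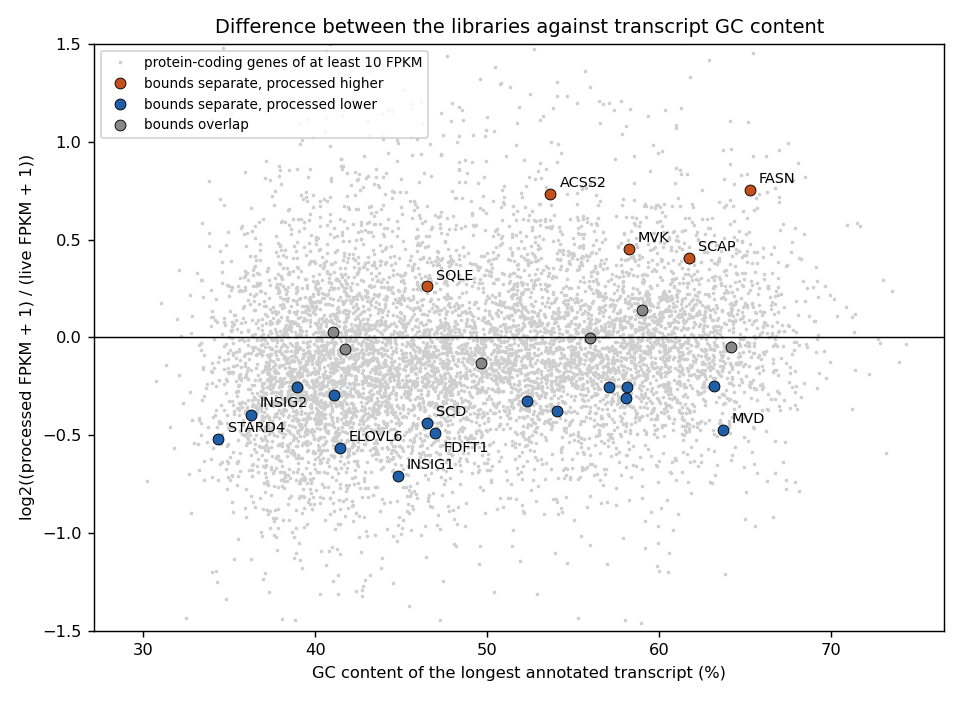
Log2((processed FPKM + 1) / (live FPKM + 1)) against GC content of the longest annotated transcript (%) for 26 members (large points, coloured by whether bounds were separate) and 7665 protein-coding genes of at least 10 FPKM (small grey points; 64 lie outside the plotted range). The separately higher members lie from 46.5% to 65.3% GC and the separately lower ones from 34.4% to 63.7%.

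The other genes of these pathways were read from a list of 34, of which 33 reached 1 FPKM in either library. Bounds were separate for 15 with the lower value in processed cells and for 12 with the higher value (44.1% and 35.3% of the 34), against 43.7% and 28.1% of all genes that reached 1 FPKM. With 1 added to each FPKM none was past 2-fold, and with 0.1 or nothing added MBTPS2 alone was past it, downwards. Their median log2 ratio was -0.06. For sterol synthesis, the methyl sterol oxidase MSMO1, at 39.5 FPKM in live and 38.0 FPKM after processing, and SC5D, listed as SC5DL, at 27.9 and 29.9 FPKM, had overlapping bounds. ACAT2, which makes the acetoacetyl-CoA used by HMGCS1, was at 36.8 and 41.1 FPKM with separate bounds.

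The proteases that release SREBPs in the Golgi were both lower in processed cells. MBTPS1 was at 29.1 FPKM (28.3 to 29.9) in live and 26.3 FPKM (25.7 to 26.9) in processed cells. MBTPS2 had the lowest log2 ratio of the 34, at -0.96, with 4.26 FPKM (4.06 to 4.46) and 1.70 FPKM (1.47 to 1.93). Genes that handle finished cholesterol differed in both directions. SOAT1, which esterifies it, at 10.7 and 6.35 FPKM, the exporter ABCA1, at 5.03 and 3.54 FPKM, and NPC2, at 163 and 147 FPKM, were separately lower. The exporter ABCG1, at 1.40 and 2.11 FPKM, and STARD3, at 23.1 and 27.3 FPKM, were separately higher. The lysosomal transporter NPC1 had overlapping bounds at 11.1 and 10.2 FPKM. TMEM97, a membrane protein that binds NPC1, was at 40.5 FPKM (39.2 to 41.8) and 58.4 FPKM (55.5 to 61.4).

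The desaturases of polyunsaturated fatty acids were separately lower in processed cells, as was SCD. FADS2 was at 222 FPKM in live and 167 FPKM after processing, and FADS1 at 51.1 and 42.7 FPKM. The interval of FADS1 lies inside that of FADS2, and whether fragments were shared between them was not tested. FADS2 was the most abundant of the 34 in either library. The elongases differed among themselves, with ELOVL5 at 37.2 and 31.6 FPKM and ELOVL1 at 20.4 and 27.4 FPKM. So did the acyl-CoA ligases, with ACSL3 at 23.0 FPKM (21.9 to 24.2) and 41.3 FPKM (35.9 to 46.7), the highest log2 ratio of the list at 0.82, and ACSL4 at 12.4 and 8.33 FPKM. ACACB, the carboxylase paralogous to ACACA, stood far below it in both libraries, at 3.74 and 4.11 FPKM with overlapping bounds.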

How the data were processed

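The values compared are FPKM per gene from 1 live and 1 processed library. Paired 80 nt reads were aligned by the authors with STAR 2.2.0c to GRCh37/hg19, using GENCODE version 14, and FPKM was deposited with bounds and a status. The submitters' notes name Cufflinks 2.0.2 and the methods Cuffdiff. Read counts were not used here. All 27 members had status OK in both libraries. Starts were moved to 1-based coordinates.

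Ratios used a pseudocount of 1, which understates changes of low genes, and backgrounds the genes that reached 1 FPKM in either library. No test between conditions was possible with 1 sample each. Transcript length and GC content came from GENCODE release 44 on GRCh37, which held 94.5% of gene identifiers. To read the step of 1 fragment, 170 nt were subtracted from transcript length. Members and lists were chosen with earlier results of these data known, and the pairs of genes given as ratios after their values were seen. All members are named. The other pathway genes were counted as a list, from which 1 gene is not reported here, and examples of it were named by role with their values known. Python 3.11.15, numpy 2.4.6, pandas 2.3.3, scipy 1.17.1 and matplotlib 3.10.9 were used, and the calculations were tested on simulated data.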

Additional observations from a re-analysis of the deposited data

How the results depend on the processing

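No paired analysis was possible because each condition has 1 sample. A pseudocount of 0.1 or none, a filter of at least 10 FPKM or none, and rows of status OK alone left the counts of members past 2-fold (0 in each direction) and the median log2 ratio within the range their bounds allow, and the filters and status left 15 members separately lower and 5 higher. Scaling to the same sum gave 15 (55.6%) lower and 6 (22.2%) higher, against 41% and 30% of all genes that reached 1 FPKM. Scaling by the median ratio gave 15 lower and 9 higher, against 35.7% and 34.8% of those genes. That scaling moved the median of the members to -0.15, against -0.001 over those genes. Counting pairs in another order by the lower or upper bounds gave 33 or 38 in place of 34. The looser spelling of the sterol element moved the number of genes holding it from 1 to 4. No member with separate bounds changed direction under any of these settings, whereas FDPS, TM7SF2 and HSD17B7, with overlapping bounds, changed sign when scaled by the median ratio, and FDPS also when scaled to the same sum. Among the 34 other pathway genes, a pseudocount of 0.1 or none, added after seeing the data, moved the number past 2-fold downwards from 0 to 1 and left that upwards at 0. Bounds cover each library alone, and 1 library per condition sets the limit on every difference.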

Other observations

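Of the 27 genes, 17 overlap another gene in the authors' tables, 12 of them a gene of at least 1 FPKM in either library and 5 a gene of at least 10 FPKM. Some of these partners differed more than the members themselves. IDI2-AS1, which overlaps IDI1, was at 0.0351 FPKM in live and 2.05 FPKM after processing (bounds 1.66 to 2.43). RP11-660L16.2, inside DHCR7, was at 1.68 FPKM (1.30 to 2.07) in live cells and listed at 0 in processed cells. RP11-19G24.2, inside ACACA, was listed at 0 in live cells and at 1.24 FPKM (0.852 to 1.63) in processed cells. STARD4-AS1, which overlaps the start of STARD4, was at 8.23 FPKM (7.33 to 9.12) and 9.37 FPKM (8.33 to 10.4), with overlapping bounds, whereas STARD4 was lower in processed cells. RAI1, which overlaps the end of SREBF1, was at 19.97 and 14.6 FPKM, lower like SREBF1. VPS51, beside TM7SF2, was at 58.8 and 52.6 FPKM. GGT7, which overlaps the start of ACSS2, was at 11.1 FPKM (10.5 to 11.7) and 11.0 FPKM (10.5 to 11.4), above ACSS2 in live cells. AL139819.1, inside SCD, was at 14.1 FPKM (0 to 22.3) and 17.8 FPKM (0 to 27.2), with overlapping bounds. The way fragments of overlapping genes were assigned was not tested.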
